A study of Homo sapiens with 4 samples.

Results

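The genes described here are 9 members of a regulatory circuit best known from heart and skeletal muscle: the transcription factor genes MEF2A, MEF2C and MEF2D, the class IIa histone deacetylase genes HDAC4, HDAC5, HDAC7 and HDAC9, and the natriuretic peptide genes NPPA and NPPB. They were found by gene symbol, with 1 row each among the 20226 genes listed for every library. RNA was sequenced from Huh7, an established human hepatocellular carcinoma line, in 2 groups: shNUP210, cells carrying a hairpin RNA that targets NUP210 (2 libraries), and shCon, control cells named by a control hairpin in their titles and labelled wild type in genotype (2 libraries). Both groups were otherwise untreated. The labels do not say how many hairpins, clones or separate cultures stood behind the libraries, so the spread between libraries may be technical. The comparison asks which transcripts changed across the genome once NUP210 was knocked down. The rows were picked out by symbol, but the families were chosen by a reading of the fold changes and levels of this same contrast, the rise of NPPB included. The fold changes and adjusted p-values of the members are therefore a description of the fit and are no independent test.

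MEF2 factors are MADS-box proteins that bind A- and T-rich DNA and switch on muscle and stress-response genes. Class IIa histone deacetylases bind MEF2 factors and repress their targets. Once phosphorylated by calcium-regulated and other kinases, they are held by 14-3-3 proteins and leave the nucleus through the export receptor encoded by XPO1. NPPA and NPPB encode the hormones ANP and BNP, which heart muscle secretes under load and which raise cyclic GMP through receptor guanylyl cyclases. NUP210 encodes a membrane glycoprotein of the nuclear pore, and in mouse muscle cells Nup210 has been described as acting together with Mef2c.

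NUP210 itself had 10.1 and 9.85 TPM in the shNUP210 libraries, against 32.8 and 27.3 TPM in the shCon libraries (TPM is transcripts per unit of library total, normalised for transcript length). Its level in shNUP210 cells was 0.332 of the shCon mean. On log2(TPM + 1) the fold change was -1.49 (SE 0.24, limma adjusted p = 0.0432), in a fit to every gene that reached 5 TPM in 2 or more libraries, with a call at an adjusted p under 0.05. Genes at 1 TPM or more numbered 14564 and 14405 in the shNUP210 libraries, against 13920 and 13675 in the shCon libraries. The read depth is unknown, since TPM keeps none. All 8 hepatocyte markers were above 100 TPM in every library, with ALB averaging 2494 TPM in shNUP210 cells and 2479 TPM in shCon cells. Of the 8, 3 (APOA1, APOA2 and SERPINA1) were called lower, against 1.07% of all genes tested. The other 5 were not called, and 4 of these had a log2 fold change above 0.

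The natriuretic peptide genes are neighbours on chromosome 1 (GRCh38, GENCODE release 29, both on the minus strand): NPPA (ENSG00000175206) lies at chr1:11845709-11848345 and NPPB (ENSG00000120937) at chr1:11857464-11858931, with 9118 bases between them. Both are protein-coding. The coding bases of the mature NPPB hormone are shown because NPPB is the member on which the results turn. They are written 5′ to 3′ on the coding strand and end at the last codon before the stop, and capitals run from the first to the last cysteine codon, which bound the hormone's ring.
NPPB: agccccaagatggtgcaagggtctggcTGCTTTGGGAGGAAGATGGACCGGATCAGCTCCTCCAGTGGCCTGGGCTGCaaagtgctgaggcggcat
These bases cross from exon 2 into exon 3 of 3 and lie at chr1:11858214-11858295 and chr1:11857658-11857671. No run of 50 bases of the NPPB transcript (0 of 645) occurs in a transcript of any other GENCODE gene on either strand. For NPPA, 184 of 1070 such runs (17.2%) also occur, on the opposite strand, in transcripts of CLCN6, a chloride and proton exchanger gene whose exons overlap NPPA by 286 bases.

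NPPB was the one member called in the fit across all genes. NPPB stood at 399 and 373 TPM in the shNUP210 libraries, against 75.2 and 80.0 TPM in the shCon libraries. Both shNUP210 values lay far above both shCon values, and the libraries of a group lay close together. The means were 385.8 ± 18.7 TPM in shNUP210 cells and 77.6 ± 3.4 TPM in shCon cells (SD, n = 2 each), a 4.97-fold ratio. On log2(TPM + 1) the fold change was 2.30 (SE 0.11, 95% interval 2.02 to 2.57, limma adjusted p = 0.00282). In abundance NPPB ranked 342nd and 363rd of the 20226 listed genes in the shNUP210 libraries, against 1788th and 1653rd in the shCon libraries. Of the 10140 genes tested, 63 had a larger log2 fold change than NPPB, and 26 of those 63 were called. Without shCon replicate 2 the adjusted p of NPPB was 0.0565, with a log2 fold change of 2.34, and without the mean-variance trend it was 0.0768. Beside NPPB, 6 of 8 stellate and fibroblast markers were matched. Their summed level was 85.5 and 64.5 TPM in the shNUP210 libraries, against 27.0 and 33.3 TPM in the shCon libraries. COL1A2 was called higher (limma adjusted p = 0.0334). Of 7 blood cell markers 3 were matched. They summed to 23.5 and 6.30 TPM in the shNUP210 libraries, against 35.2 and 27.4 TPM in the shCon libraries. CD68 held 13.85 and 2.48 TPM of that sum in shNUP210, against 30.66 and 17.85 TPM in shCon. The 1 matched endothelial marker, CLDN5, stayed under 1 TPM. Of the stellate and fibroblast sum, COL1A2 held 48.8 and 45.2 TPM in the shNUP210 libraries, against 16.4 and 18.1 TPM in the shCon libraries. Of the 3 tested genes of that list, 2 were higher without overlap, and PDGFRB overlapped. The titles name Huh7 alone, and the part of other cell types in the NPPB difference was not tested.

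NPPA was near 0, with both group means under 1 TPM. It had 0 and 1.98 TPM in the shNUP210 libraries, against 0 and 1.00 TPM in the shCon libraries. One library of each group was listed at 0, so the groups overlapped. NPPA did not pass the 5 TPM filter, and with no filter its log2 fold change was 0.29 (SE 0.69, limma adjusted p = 0.852). Of the summed TPM of both peptide genes, NPPB took 100 and 99.5% in the shNUP210 libraries, against 100 and 98.8% in the shCon libraries.

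**Figure D1:**
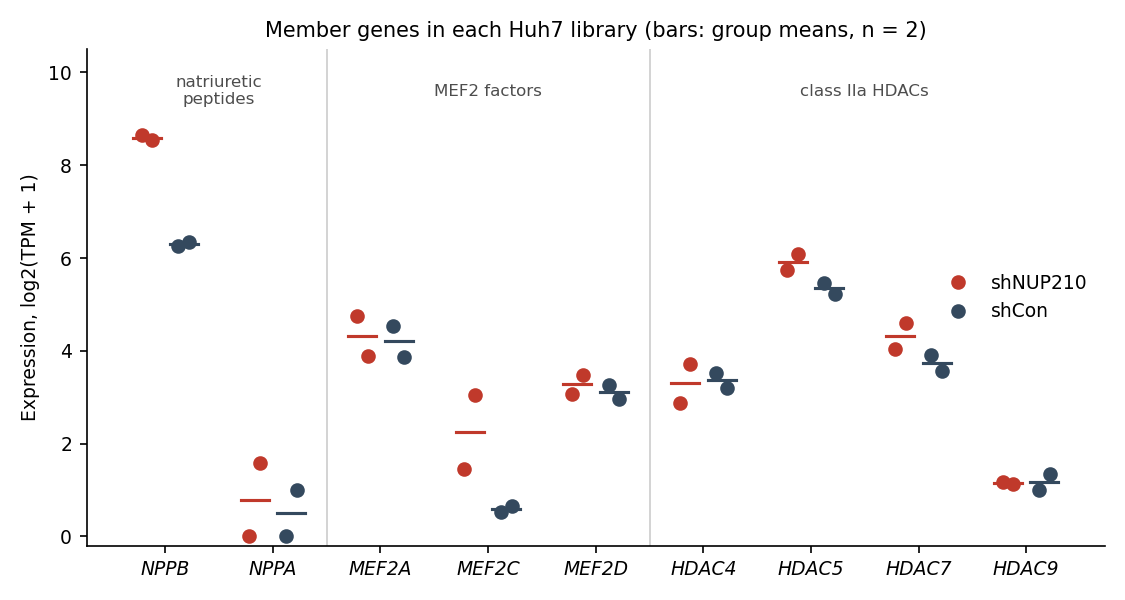
Expression of the 9 members in each library, as log2(TPM + 1), with shNUP210 libraries in red and shCon libraries in dark blue; each point is a library and each bar a group mean (n = 2). NPPB separates by 2.30 on this scale, MEF2C separates at low values with its shNUP210 libraries far apart, and NPPA has a library at 0 in each group.

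Of the 9 members, 6 passed the filter of at least 5 TPM in 2 libraries and were tested, and MEF2C, HDAC9 and NPPA did not pass. By limma at an adjusted p under 0.05, 1 of the 6 was called (NPPB, higher) and 5 were not. Over all genes tested 2.86% were called, 1.79% higher and 1.07% lower. The groups did not overlap for NPPB, HDAC5 and HDAC7, all higher in shNUP210 cells, while 42.9% of all genes tested were higher and 14.3% lower without overlap. The median log2 fold change of all genes tested was 0.23 in TPM as deposited, so a gene at that value stood at the middle of the table. The median of the 6 tested members was 0.37. In bulk RNA, a change in the share of cells that express a gene and a change of its level per cell cannot be told apart.

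**Figure D2:**
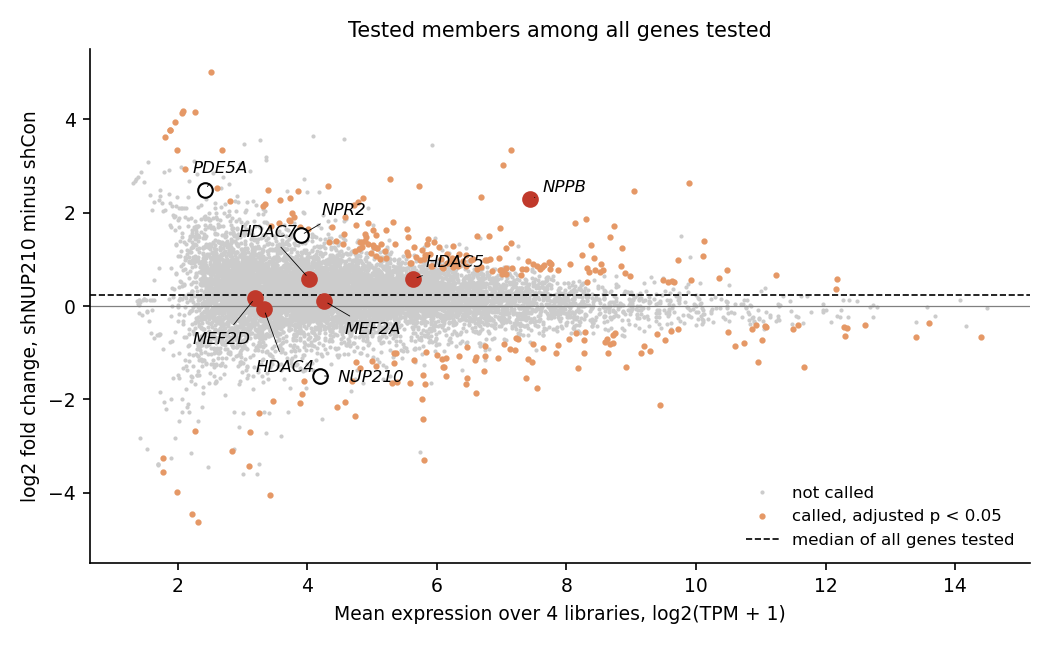
Log2 fold change (shNUP210 minus shCon) against mean log2(TPM + 1) over the 4 libraries for the 10140 genes tested. Filled red circles are the 6 tested members and open circles NUP210, NPR2 and PDE5A; NPPB lies at 2.30 among called genes (orange), and the other 5 members lie within the grey band of genes not called, around the dashed median of 0.23.

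Among the MEF2 factors, MEF2A was the most abundant, and neither MEF2A nor MEF2D differed beyond the spread between libraries. No run of 50 bases is shared between any 2 of the 9 members' transcripts.

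MEF2A (ENSG00000068305, chr15:99565417-99716466, plus strand) had 25.9 and 13.8 TPM in the shNUP210 libraries, against 22.3 and 13.6 TPM in the shCon libraries. One library of each group was high and the other low, and the groups overlapped. The log2 fold change was 0.11 (SE 0.39, 95% interval -0.86 to 1.08, limma adjusted p = 0.894), and it was negative under 4 other scalings of the libraries (-0.16 to -0.087). MEF2A shares 770 exonic bases (11.1%) with LYSMD4 on the opposite strand, and strand-specific counting is stated nowhere in the sources used here. LYSMD4 had 7.17 and 13.5 TPM in the shNUP210 libraries, against 8.16 and 13.9 TPM in the shCon libraries, the lower value falling in the library where MEF2A was higher.

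MEF2D (ENSG00000116604, chr1:156463727-156500828, minus strand) had 7.41 and 10.2 TPM in the shNUP210 libraries, against 8.60 and 6.78 TPM in the shCon libraries. The groups overlapped, with the highest value in shNUP210 replicate 2 and the lowest in shCon replicate 2. The log2 fold change was 0.17 (SE 0.34, 95% interval -0.69 to 1.02, limma adjusted p = 0.794), and it was negative under the 4 other scalings (-0.13 to -0.015). MEF2D shares no exonic bases with another annotated gene.

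MEF2C (ENSG00000081189, chr5:88717117-88904257, minus strand), the family member most tied to heart and muscle development, was under 2 TPM in 3 of the 4 libraries. It had 1.73 and 7.25 TPM in the shNUP210 libraries, against 0.43 and 0.58 TPM in the shCon libraries. Both shNUP210 libraries lay above both shCon libraries. The means were 4.49 ± 3.90 TPM in shNUP210 and 0.505 ± 0.106 TPM in shCon (SD, n = 2 each). In TPM, though not on log2(TPM + 1), the shNUP210 libraries were farther from each other than the group means were. With a single library at 5 TPM or more, MEF2C did not enter the fit. The difference on log2(TPM + 1) was 1.66, and it was 0.86 without shNUP210 replicate 2 and 2.46 without shNUP210 replicate 1. With no filter the limma adjusted p was 0.363. At 1 TPM in 2 libraries it was 0.24, but MEF2C passed that filter through the shNUP210 libraries alone, where it was higher. MEF2C-AS1, an antisense gene that shares 422 exonic bases with MEF2C, was listed at 0 in both shNUP210 libraries and at 0 and 1.41 TPM in the shCon libraries.

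MEF2B, the remaining MEF2 gene and not one of the 9 members, had 5.19 and 8.53 TPM in the shNUP210 libraries, against 7.06 and 7.92 TPM in the shCon libraries (limma adjusted p = 0.848). Its level is uncertain, since 1365 of its 1848 exonic bases (73.9%) are shared on the same strand with a read-through gene listed as MEF2BNB-MEF2B, which was at 69.6 and 54.1 TPM in shNUP210 and 46.5 and 43.1 TPM in shCon. The summed TPM of MEF2A, MEF2C and MEF2D was 33.1 ± 2.7 in shNUP210 cells and 26.2 ± 7.3 in shCon cells (SD, n = 2 each), a difference within the shCon spread. MEF2C made up 4.94 and 23.2% of that sum in the shNUP210 libraries, against 1.37 and 2.76% in the shCon libraries.

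Among the class IIa deacetylase genes, HDAC5 was the most abundant, followed by HDAC7, HDAC4 and HDAC9, and none was called. HDAC5 (ENSG00000108840, chr17:44076746-44123702, minus strand), a signal-responsive repressor of MEF2 in heart, had 52.9 and 67.0 TPM in the shNUP210 libraries, against 43.3 and 36.4 TPM in the shCon libraries. Both shNUP210 values lay above both shCon values, as for 42.9% of all genes tested. The log2 fold change was 0.57 (SE 0.20, 95% interval 0.085 to 1.06, limma adjusted p = 0.162), and it was 0.35 to 0.37 under the 4 other scalings. HDAC5 shares neither exonic bases nor a run of 50 bases with another annotated gene.

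HDAC7 (ENSG00000061273, chr12:47782722-47833132, minus strand), known for its part in blood vessels and developing thymocytes, had 15.5 and 23.2 TPM in the shNUP210 libraries, against 14.0 and 10.8 TPM in the shCon libraries. The groups did not overlap, but the lower shNUP210 library was close to the higher shCon library. The log2 fold change was 0.59 (SE 0.30, 95% interval -0.17 to 1.34, limma adjusted p = 0.29), and it was 0.30 to 0.40 under the 4 other scalings. Of the runs of 50 bases in HDAC7 transcripts, 958 of 10929 (8.77%) occur on the opposite strand in the overlapping genes AC004466.1 and AC004466.3. AC004466.1 had 7.92 and 7.16 TPM in the shNUP210 libraries, against 2.79 and 3.97 TPM in the shCon libraries, and the part of shared reads in the HDAC7 values was not tested.

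HDAC4 (ENSG00000068024, chr2:239048168-239401654, minus strand), a MEF2 repressor of muscle and growth-plate cartilage, had 6.32 and 12.2 TPM in the shNUP210 libraries, against 10.6 and 8.17 TPM in the shCon libraries. The shCon values lay between the shNUP210 values. The log2 fold change was -0.065 (SE 0.40, 95% interval -1.06 to 0.93, limma adjusted p = 0.941), and it was positive without shNUP210 replicate 1 (0.36) and without shCon replicate 1 (0.10).

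HDAC9 (ENSG00000048052, chr7:18086949-19002416, plus strand), itself a MEF2 target gene in muscle, had 1.25 and 1.18 TPM in the shNUP210 libraries, against 1.01 and 1.54 TPM in the shCon libraries. It was low but not under the 1 TPM mark by its group means (1.22 ± 0.05 TPM in shNUP210 and 1.28 ± 0.38 TPM in shCon, SD, n = 2 each), and the groups overlapped. HDAC9 did not pass the 5 TPM filter, and with no filter its log2 fold change was -0.029 (SE 0.39, limma adjusted p = 0.972).

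The summed TPM of the 4 class IIa genes was 76.0 and 103.6 in the shNUP210 libraries, against 68.8 and 57.0 in the shCon libraries. By its means the sum was 1.43 times higher. It averaged 89.8 ± 19.5 TPM in shNUP210 and 62.9 ± 8.4 TPM in shCon (SD, n = 2 each). The lowest shNUP210 library was above the highest shCon library. HDAC5 and HDAC7 were higher by their means and HDAC4 and HDAC9 were not. The median log2 fold change of all genes tested was 0.23. HDAC5 made up most of the sum throughout, with 69.6 and 64.6% in the shNUP210 libraries, against 62.9 and 64.0% in the shCon libraries. HDAC4 took 8.32 and 11.8% in the shNUP210 libraries, against 15.3 and 14.3% in the shCon libraries. By group means the 9 members ran NPPB, HDAC5, MEF2A, HDAC7, HDAC4, MEF2D in both groups, then MEF2C, HDAC9 and NPPA in shNUP210 cells and HDAC9, MEF2C and NPPA in shCon cells. MEF2A with HDAC7 and HDAC4 with MEF2D are neighbours in that order whose libraries overlapped within both groups. HDAC9 and NPPA overlapped in shNUP210 cells, and MEF2C and NPPA in shCon cells.

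Other genes of the same circuit were taken from lists based on textbook roles and written with earlier results of these data known. Of 121 distinct genes, 99 were matched to a row and 70 were tested. By limma 2 were called higher and 0 lower, a share of 2.86%, which equals the 2.86% called over all genes, and the median log2 fold change was 0.31 against 0.23 over all genes. Both calls belonged to the natriuretic peptide system, the receptors, processing enzymes and cyclic GMP enzymes around ANP and BNP, where 2 of 6 tested genes were called, 4 were not and the median was 0.44. One of the 2, PDE5A, passed the filter through the shNUP210 libraries alone, so these counts are a description and support nothing. Both calls were close to the threshold and ended under each of the 4 other scalings.

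NPR2, a guanylyl cyclase receptor whose preferred ligand is the C-type natriuretic peptide, had 24.0 and 24.4 TPM in the shNUP210 libraries, against 7.21 and 8.49 TPM in the shCon libraries. The libraries of each group lay close together, and the groups did not overlap. The ratio of the means was 3.08 and the log2 fold change 1.51 (SE 0.25, limma adjusted p = 0.0487), with adjusted p of 0.0606 to 0.0809 under the 4 other scalings and 0.156 to 0.204 when a library was left out. NPR2 (chr9:35792154-35809732, plus strand) shares 329 exonic bases (8.5%) with SPAG8 on the opposite strand, and SPAG8 was at 25.2 and 35.6 TPM in shNUP210 and 9.44 and 4.82 TPM in shCon. The part of shared reads in the NPR2 values was not tested.

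PDE5A, the cyclic GMP phosphodiesterase that sildenafil inhibits, had 13.5 and 10.1 TPM in the shNUP210 libraries, against 1.19 and 1.34 TPM in the shCon libraries. It was low in shCon cells and passed the filter through the shNUP210 libraries alone. The ratio of the means was 9.32 and the log2 fold change 2.49 (SE 0.43, limma adjusted p = 0.0496), with adjusted p of 0.0544 to 0.077 under the 4 other scalings, 0.0613 at a pseudocount of 0.1, and 0.145 to 0.189 when a library was left out. PDE5A (chr4:119494395-119628991, minus strand) shares 542 exonic bases (5.5%) with the opposite-strand pseudogene SEPTIN7P14, which was at 14.4 and 26.5 TPM in shNUP210 and 6.11 and 10.1 TPM in shCon.

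No other tested gene of the system was called. FURIN, a protease that cleaves the BNP precursor, was the most abundant of them, at 443 and 421 TPM in the shNUP210 libraries, against 345 and 304 TPM in the shCon libraries (log2 fold change 0.42, SE 0.10, limma adjusted p = 0.0918). PCSK6, a related protease, averaged 78.4 TPM in shNUP210 and 79.8 TPM in shCon cells, PDE9A, another cyclic GMP phosphodiesterase, 15.2 TPM in shNUP210 and 10.7 TPM in shCon, and IDE, an insulin- and peptide-degrading protease, 6.19 TPM in shNUP210 and 6.80 TPM in shCon. CORIN, the protease that activates ANP in the heart, averaged 0.805 TPM in shNUP210 and 0.855 TPM in shCon, PRKG1, a cyclic GMP-dependent kinase, 0.085 TPM in shNUP210 and 0.195 TPM in shCon, and NPPC, which encodes the C-type peptide, had 1.37 and 0 TPM in the shNUP210 libraries, with both shCon values listed at 0. The ANP and BNP receptor gene NPR1 and the clearance receptor gene NPR3 were not analysed here.

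**Figure D3:**
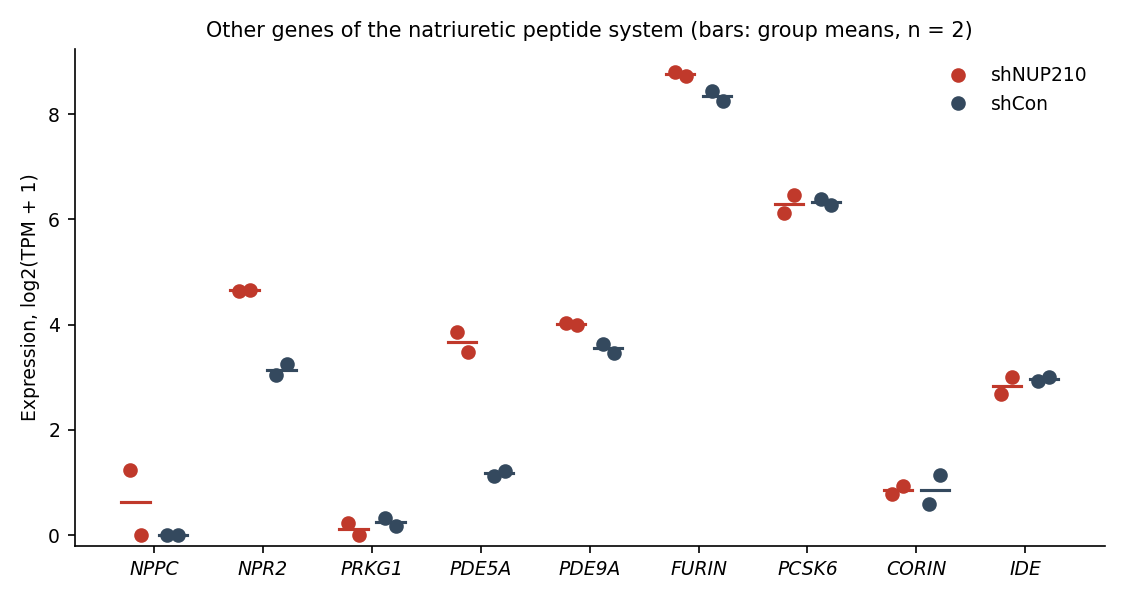
Expression of 9 other genes of the natriuretic peptide system in each library, as log2(TPM + 1), with shNUP210 libraries in red, shCon libraries in dark blue and bars at group means (n = 2). NPR2 and PDE5A separate between the groups, FURIN and PDE9A by less, and NPPC, PRKG1 and CORIN lie near 0.

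The genes beside NPPA and NPPB on chromosome 1 were not called (0 of 3 tested, median log2 fold change 0.33, against 0.23 over all genes). CLCN6 had 15.8 and 12.1 TPM in the shNUP210 libraries, against 5.42 and 9.91 TPM in the shCon libraries (log2 fold change 0.83, SE 0.38, limma adjusted p = 0.246). PLOD1, a collagen lysine hydroxylase gene, averaged 68.2 TPM in shNUP210 and 54.1 TPM in shCon cells (adjusted p = 0.25), and KIAA2013 82.3 TPM in shNUP210 and 84.4 TPM in shCon (adjusted p = 0.893). NPPA-AS1, an antisense gene by its name, averaged 3.72 TPM in shNUP210 and 2.65 TPM in shCon cells and was not tested. Of these 4 neighbours CLCN6 had the highest ratio of means, 1.82, against 4.97 for NPPB.

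Of 13 tested regulators known to act on natriuretic peptide genes in heart, 0 were called, with a median of 0.28. The most abundant were GATA4, a cardiac and hepatic zinc-finger factor, at 70.1 ± 7.2 TPM in shNUP210 cells and 59.8 ± 10.1 TPM in shCon cells, and the AP-1 subunit JUN, at 65.7 ± 1.9 TPM in shNUP210 cells and 56.8 ± 2.8 TPM in shCon cells (SD, n = 2 each, limma adjusted p = 0.471 and 0.426). Of 12 tested class IIa deacetylase kinases, 0 were called, with a median of 0.52, and 10 were higher without overlap, against 42.9% of all genes. STK11, which activates the AMPK-related kinases, averaged 94.2 TPM in shNUP210 and 88.5 TPM in shCon cells, and CAMK1 58.8 TPM in shNUP210 and 68.3 TPM in shCon. The 8 genes of 14-3-3 proteins and XPO1 likewise had 0 calls, with a median of 0.51. YWHAE averaged 891 TPM in shNUP210 and 809 TPM in shCon cells, and YWHAQ 259 TPM in shNUP210 and 167.0 TPM in shCon cells. The corepressor partners (0 of 9, median 0.013), the MEF2 coactivators and upstream kinases (0 of 11, median 0.36) and the calcineurin modulators (0 of 2, median 0.060) had no calls either, and their most abundant members were CTBP1 and RFXANK, CARM1 and PRKACA, and RCAN1 and RCAN3. Higher without overlap were also 6 of 13 regulators, 6 of the 8 genes of 14-3-3 proteins and XPO1, and 6 of 11 coactivators and upstream kinases. So were 2 of 9 corepressor partners and 1 of 2 calcineurin modulators. Lower without overlap were 2 of 13 regulators, 1 of 12 deacetylase kinases and 1 of the 8 genes of 14-3-3 proteins and XPO1. So were 2 of 11 coactivators and upstream kinases, 1 of 9 corepressor partners and 1 of 2 calcineurin modulators. Over all genes tested, 14.3% were lower and 42.9% higher without overlap. HDAC6, HDAC10 and SRF, near relatives of the members, were not called (limma adjusted p 0.121, 0.663 and 0.557).

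Few MEF2 target genes known from muscle and other tissues passed the filter. Of 21 on the list 13 were matched, 4 of them stayed under 1 TPM in every library, and 4 were tested, with 0 calls and a median log2 fold change of -0.025. ACTA1, skeletal muscle actin, had 3.96 and 4.26 TPM in the shNUP210 libraries, against 1.12 and 0.38 TPM in the shCon libraries, and the nuclear receptor gene NR4A2 4.95 and 4.11 TPM in shNUP210, against 1.15 and 0.59 TPM in shCon. Both were higher without overlap, stayed under the filter and are named after their values were seen. Of the other matched targets below the filter, SLC2A4 was also higher without overlap. KLF4, PPARGC1A, MYL7, XIRP1, XIRP2 and MYOM1 overlapped. Of the 4 tested, JUN was higher and NR4A1 lower without overlap, against 42.9% higher and 14.3% lower over all genes tested. NR4A1 had 12.5 and 9.35 TPM in the shNUP210 libraries, against 27.6 and 14.1 TPM in the shCon libraries. Its log2 fold change was -0.81 (SE 0.38, limma adjusted p = 0.255), and it too is named after its values were seen. DUSP6, a phosphatase of ERK kinases and a MEF2 target in some cells, averaged 51.4 TPM in shNUP210 and 57.0 TPM in shCon cells (limma adjusted p = 0.862). Of 14 heart and skeletal muscle markers, 3 were matched and none reached 5 TPM: TTN, encoding titin, had 1.14 and 1.28 TPM in the shNUP210 libraries, against 0.89 and 0.59 TPM in the shCon libraries, MYL7, an atrial myosin light chain, had 0 and 2.86 TPM in the shNUP210 libraries, with both shCon values listed at 0, and MYH7 had 0 and 0.10 TPM, again with both shCon values listed at 0.

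The 5 genes whose profile over the 4 libraries lay closest to that of NPPB were RP11-265D17.2, MAB21L2, IL18, ANKRD1 and FLRT2. Closeness was the Euclidean distance between log2(TPM + 1) profiles, each centred on its own mean. With 2 libraries per group, a small distance to NPPB largely restates a similar fold change, so these names are a description. MAB21L2, IL18, ANKRD1 and FLRT2 were under 5 TPM in both shCon libraries and passed the filter through the shNUP210 libraries alone. RP11-265D17.2 (ENSG00000254680), an antisense gene on chromosome 11 in GENCODE, was closest at a distance of 0.055, with 237 and 225 TPM in the shNUP210 libraries, against 44.3 and 45.5 TPM in the shCon libraries. MAB21L2 followed at 0.14 and the cytokine gene IL18 at 0.19. ANKRD1, a cardiac stress gene and a target of YAP, was at 0.22, with 19.2 and 20.9 TPM in the shNUP210 libraries, against 3.73 and 3.78 TPM in the shCon libraries. For HDAC5 the closest were NMT1 and TESK1 (0.030 and 0.034), for HDAC7 DHX35 and GNPTAB (0.053 and 0.066), and for MEF2D GLI4 and TMEM106C (0.042 and 0.048).

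RefSeq promoters (GRCh38.p14) were found for 7 of the 9 members, all but NPPB and HDAC5, and the 250 bases before each start were searched on both strands. The MEF2 motif, written as CTA and TAG with any 4 bases between them, occurred in 1 of 3 MEF2A windows and in none of the others searched, against 2.36% of all 35116 windows. That match is shown as the one MEF2 motif among the members, in capitals, within a stretch at chr15:99565951-99565980 on the plus strand. The capitals end 13 bases before 1 of the 3 RefSeq starts of MEF2A, which lies inside the gene as GENCODE bounds it.
MEF2A: ggcttgtctcCTAAAAATAGccccggtgtg
The motif GATAA, bound by a family of zinc-finger factors that includes the GATA4 protein, was held by 20.4% of all windows. It occurred 2 times in the single NPPA window, in the single HDAC7 window, in 3 of 7 MEF2C windows, 3 of 5 HDAC9 windows, 1 of 5 HDAC4 windows and 1 of 3 MEF2A windows. The AP-1 motif, written as TGA and TCA with any base between them, was held by 6.57% of all windows, and occurred in the NPPA window, in 1 of 7 MEF2C windows and in 2 of 5 HDAC9 windows. The TEAD motif CATTCC (11.9% of all windows) occurred in 1 window each of MEF2A, MEF2C, HDAC4 and HDAC9, and a CArG box (1.16%) in no member's window. These matches describe letters in the reference and were tested against no expression value.

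**Figure D4:**
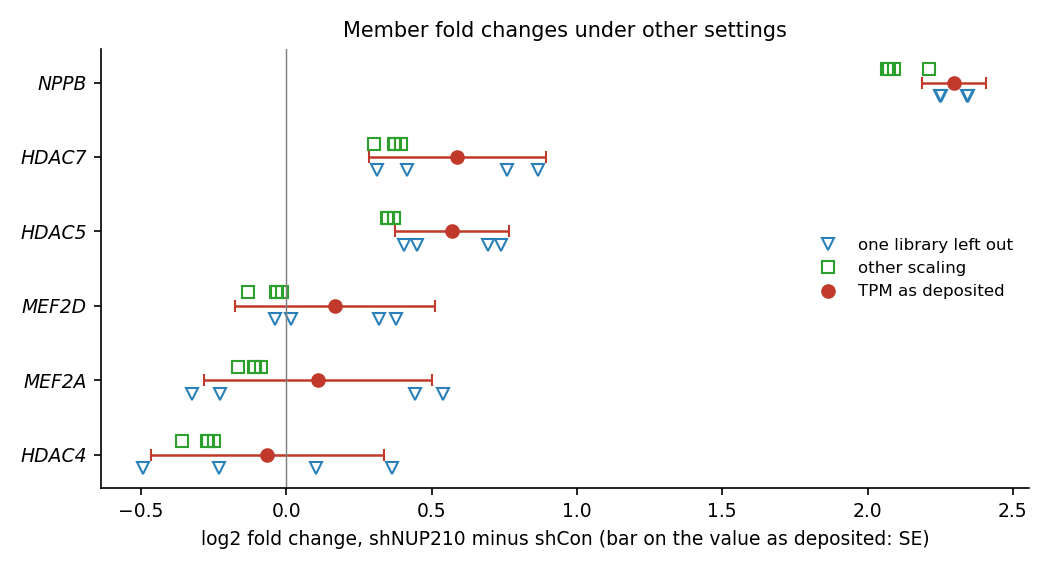
Log2 fold change (shNUP210 minus shCon) of the 6 tested members in TPM as deposited (filled red, bar: SE), under 4 other scalings (green squares) and with each library left out in turn (blue triangles). NPPB stays between 2.07 and 2.35, HDAC5 and HDAC7 stay above 0, and MEF2A, MEF2D and HDAC4 lie on both sides of 0.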

How the data were processed

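Illumina TruSeq libraries were made from Trizol-extracted total RNA of Huh7 cells, per the labels' protocols. The authors deposited 1 table per library with TPM values, a unit read from the column totals (999992.7 to 999997.8). Trimmomatic, STAR, RSEM and DESeq with hg38 are named in the submitters' processing notes, with no versions or roles. The annotation release and strandedness are not given in the sources used here.

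Groups were taken from the titles. Limma 3.58.1 (R 4.3.3) was fitted to log2(TPM + 1) of the 10140 genes with at least 5 TPM in 2 libraries, group as the only term, with a mean-variance trend, and p-values were two-sided and Benjamini-Hochberg adjusted over all genes tested. A call is an adjusted p under 0.05. The fold change understates changes of low genes. A permutation test of 2 against 2 libraries could not go below 0.333 and was not used. The procedure was run on simulated data whose noise was drawn from its own fitted variance prior. That run cannot show how well the model suits these libraries. The members, gene lists, filter and scaling were chosen with earlier results of these data known. Named genes are all members, NUP210, genes of the natriuretic, neighbour and relative lists, and of other lists the called genes or the 2 most abundant. Outside that rule, NR4A1, ALB, CLDN5 and the genes closest to a member in profile were named. So were the matched MEF2 target genes below the filter and the matched stellate, fibroblast and muscle markers. Genes set beside these for shared exons were added after their values were seen. Positions, exon overlaps, transcripts and coding sequences came from GENCODE release 29. Alternatives were other scalings, pseudocounts, filters, variance priors, the replicate number as a block and each library left out. A neighbouring gene and some member sequences are not reported here.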

Additional observations from a re-analysis of the deposited data

How the results depend on the processing

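NPPB kept its direction in all 15 alternatives. It lost its call without the mean-variance trend (log2 fold change 2.30, adjusted p = 0.0768, 0 members and 0 genes called, 2290 genes at an unadjusted p under 0.05) and without shCon replicate 2, and leaving out a library gave 2.25 to 2.35, with 0 to 1 members called and 4 to 27 genes called. Calls over the table were 14 with no filter and 57 at 1 TPM in 2 libraries, against 290. NUP210 lost its call with no filter, at 1 TPM in 2 libraries, without the trend and with the replicate block (log2 fold change -1.49 in each, adjusted p 0.131, 0.0781, 0.0991 and 0.082) and without any library (-1.62 to -1.37). The list calls (2) went to 0 under trimmed-mean, upper-quartile, median-ratio and quantile scaling. These scalings moved the median of all genes from 0.23 to between 0.0093 and 0.041, and the split of calls from 181 higher and 109 lower to 80 and 236 (trimmed mean), 92 and 230, 80 and 233, and 87 and 116 (quantile). In that order of scalings MEF2A turned to -0.11, -0.087, -0.11 and -0.16, and MEF2D to -0.037, -0.015, -0.033 and -0.13. With a library left out MEF2A ran from -0.32 to 0.54, MEF2D from -0.039 to 0.38 and HDAC4 from -0.49 to 0.36. The replicate block gave 63 calls, with NPPB called (limma adjusted p = 0.0121). Same-numbered libraries shared almost no deviation across genes (r = 0.023 across 10140 genes). That value cannot show whether same-numbered libraries were prepared together, and the labels do not say. The cause of these changes was not tested. Depth is unknown, so no counting error could be given.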
